A study of Mus musculus with 8 samples.

Results

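The *Hoxd* cluster of the mouse lies on chromosome 2 and holds 9 genes in the order *Hoxd13*, *Hoxd12*, *Hoxd11*, *Hoxd10*, *Hoxd9*, *Hoxd8*, *Hoxd4*, *Hoxd3* and *Hoxd1*. The occupancy of SMCHD1 was followed from its *Hoxd13* end to its *Hoxd1* end in chromatin immunoprecipitation followed by sequencing (ChIP-seq). Reads were counted over published SMCHD1 peaks widened by 5000 bp in both directions, and 27 of the 2840 regions made in this way overlapped the cluster (chr2:74668310-74765142, GRCm38). All 9 genes had the same start and end in GENCODE M21, which was used for exons and neighbouring genes.

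The antibody was raised against GFP, which was fused to the endogenous SMCHD1 protein in all lines. Primary neural stem cells (NSCs), grown from the cortex of female C57BL/6J embryos at E14.5, came as 3 *Smchd1*GFP+/+ lines (WT) and 3 lines homozygous for *MommeD43*, a point mutation of *Smchd1*, on the same tagged allele. The authors merged the 3 lines, so each region had 1 log2 value for WT and 1 for *MommeD43*. No spread between lines could be given, and no difference could be tested.

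Hox genes encode homeodomain transcription factors that give cells their position along the body axis and, for the *Hoxd13* side of this cluster, along the limbs. Their order on the chromosome follows the order in which they are switched on, with *Hoxd1* early and towards the head and *Hoxd13* late and towards the tail and digits. SMCHD1 is a noncanonical member of the SMC protein family that takes part in gene silencing on the inactive X chromosome and at gene clusters, the Hox clusters among them.

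The promoters of 4 *Hoxd* genes are printed here because peaks covered all of the *Hoxd13*, *Hoxd10* and *Hoxd8* sequences and none of the *Hoxd1* sequence. They are RefSeq sequences (GRCm38.p6, plus strand, 300 bases, of which 250 lie before the start), with every CG dinucleotide in capitals. The *Hoxd13* promoter lies at chr2:74667975-74668274, that of *Hoxd10* at chr2:74691641-74691940, that of *Hoxd8* at chr2:74704365-74704664 and that of *Hoxd1* at chr2:74762730-74763029.
Hoxd13: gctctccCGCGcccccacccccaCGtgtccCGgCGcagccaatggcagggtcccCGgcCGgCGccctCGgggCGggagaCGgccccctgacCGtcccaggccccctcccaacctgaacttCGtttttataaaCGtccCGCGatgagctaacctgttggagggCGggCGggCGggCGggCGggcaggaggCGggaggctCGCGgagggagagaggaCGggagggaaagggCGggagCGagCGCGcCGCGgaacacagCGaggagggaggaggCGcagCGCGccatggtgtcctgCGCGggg
Hoxd10: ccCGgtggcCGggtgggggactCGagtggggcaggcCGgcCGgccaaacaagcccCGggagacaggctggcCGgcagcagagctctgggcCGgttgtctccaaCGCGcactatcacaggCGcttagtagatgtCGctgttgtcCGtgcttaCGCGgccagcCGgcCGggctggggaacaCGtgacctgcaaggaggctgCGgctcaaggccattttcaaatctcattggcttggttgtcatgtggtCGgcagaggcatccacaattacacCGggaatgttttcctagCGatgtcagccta
Hoxd8: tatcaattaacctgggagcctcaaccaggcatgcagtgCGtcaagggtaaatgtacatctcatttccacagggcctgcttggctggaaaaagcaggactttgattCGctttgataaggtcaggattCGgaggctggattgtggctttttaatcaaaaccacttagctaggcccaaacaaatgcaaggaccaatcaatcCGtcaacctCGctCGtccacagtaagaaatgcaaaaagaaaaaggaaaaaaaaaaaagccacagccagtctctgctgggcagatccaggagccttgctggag
Hoxd1: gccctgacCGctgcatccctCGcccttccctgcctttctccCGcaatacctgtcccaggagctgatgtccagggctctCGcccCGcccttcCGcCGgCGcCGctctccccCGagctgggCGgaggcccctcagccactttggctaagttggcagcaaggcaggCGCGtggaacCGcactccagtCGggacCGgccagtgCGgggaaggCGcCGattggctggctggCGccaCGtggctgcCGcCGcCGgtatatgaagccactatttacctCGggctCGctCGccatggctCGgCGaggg

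A CG was present in 94.6% of the 32851 promoters of this length in the RefSeq table, with a median of 7 per promoter. The *Hoxd13* promoter held 37, a number reached by 5.58% of promoters. The *Hoxd10* promoter held 22 (reached by 23.1%) and the *Hoxd8* promoter 6 (reached by 56.4%). The *Hoxd1* promoter held 29, a number reached by 12.9% of promoters. Promoters rich and poor in CG thus lay in peaks, and a CG-rich one lay outside them. All 9 genes had a promoter in the table, with 2 for *Hoxd11*, and 9 of these 10 sequences lay wholly in peaks, beside 0.435% of all 32851. The exception was *Hoxd1*.

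Peaks covered the cluster unevenly. From the start of *Hoxd13* to the end of *Hoxd9*, 96.2% of 31.9 kb lay in peaks, and from there to the end of *Hoxd3* 71.7% of 48.2 kb did. Between the end of *Hoxd3* and the end of *Hoxd1* the share was 15.3% of 16.7 kb. All exon bases of *Hoxd13*, *Hoxd11*, *Hoxd10*, *Hoxd9* and *Hoxd8* were in peaks, as were 94.1% of those of *Hoxd12*. For *Hoxd4* the share of exon bases was 71.0% and for *Hoxd3* 45.4%. The longest gap between peaks, 6150 bp at chr2:74741101-74747250, held 52.6% of the exon bases of *Hoxd3*.

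*Hoxd1*, the member at the head end of the series (ENSMUSG00000042448, chr2:74762980-74765142), had no peak among the 2840. The last peak of the cluster (chr2:74753101-74754150) lay in the noncoding gene *Haglr*, 8.83 kb before the start of *Hoxd1*, and its region ended 3.83 kb before that start. No value can therefore be given here for *Hoxd1*, and the *Hoxd1* end was measured over *Hoxd3* and *Hoxd4*. Of the 39 Hox genes of the 4 clusters, 37 had a peak. *Hoxd1* and *Hoxb1* were without one.

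At the other side the peaks ran on past *Hoxd13*. The run of peaks began at 74650651, 17.7 kb before the *Hoxd13* start, and covered *Evx2*, a homeobox gene read in the opposite direction, with 95.4% of that gene in peaks. It ended at 74754150 after 103.5 kb, of which 82.0% lay in peaks. The nearest peaks beyond it were 757.2 kb and 383.2 kb away. The neighbours *Lnpk* and *Mtx2* had no peak. Of this run, 3 regions lay outside the *Hoxd* span, 2 at *Evx2* and 1 past its end. They had WT values of 9.88, 10.35 and 10.74 and *MommeD43* values of 10.03, 10.51 and 10.90, rising towards *Hoxd13*.

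The level at *Hoxd* was high, as it was at the other Hox clusters. The median of the 27 *Hoxd* regions was 10.31 in WT and 10.50 in *MommeD43* on the log2 scale, beside 7.76 and 7.83 over all 2840 regions. The medians of *Hoxa* were 10.26 and 10.48, those of *Hoxb* 9.93 and 10.08 and those of *Hoxc* 10.28 and 10.41. Since peaks of the cluster were longer than most (median 2250 bp beside 450 bp), levels were also divided by the length of the region. Per kb the *Hoxd* medians were 6.72 in WT and 6.95 in *MommeD43*, beside 4.36 and 4.44 over all regions. The WT medians per kb of the other clusters were 6.77 at *Hoxa*, 6.45 at *Hoxb* and 6.83 at *Hoxc*. Per kb, 16 of the 27 regions were among the 100 highest of all regions in WT, a place held by 3.52% of regions, and 15 were in *MommeD43*, again beside 3.52%. These were the regions from the *Hoxd13* side as far as *Hoxd4*. The peaks came from earlier SMCHD1 ChIP-seq, so the level was not independent of how the regions were chosen. Against regions outside the Hox clusters, the *Hoxd* median was 2.66 higher in WT and 2.80 higher in *MommeD43*. Against those with peaks at least as long as the lower quartile of the *Hoxd* peaks, it was 1.20 and 1.28 higher.

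*Hoxd13*, which patterns the digits, was overlapped by the peaks of 2 regions. These regions had WT values of 10.54 and 10.61 and *MommeD43* values of 10.70 and 10.73. Their median was 6.92 per kb in WT and 7.06 in *MommeD43*. *Hoxd12* was overlapped by the peaks of 3 regions with medians of 6.98 and 7.13 per kb, and *Hoxd11* by those of 2 regions with 6.94 and 7.14. These genes, which act with *Hoxd13* in the limb, lay at nearly the same level per kb in each genotype. Regions of the 3 genes overlap and share reads, so these levels are not independent.

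The highest level per kb in the cluster was at *Hoxd10*, a gene of the hindlimb and lumbar spinal cord (ENSMUSG00000050368). Its peak at chr2:74693701-74696250 had 7.12 per kb in WT and 7.35 in *MommeD43*, from 1273 and 1274 estimated reads per library. This region was number 7 of 2840 per kb in WT and number 8 in *MommeD43*. The longest peak of the cluster, 12900 bp, ran from *Hoxd11* into *Hoxd10* and had 11.50 in WT and 11.74 in *MommeD43*. It included the *Hoxd10* promoter printed above. The next long peak, 11850 bp, covered *Hoxd9* and *Hoxd8* whole and had 11.41 and 11.65, or 6.96 and 7.20 per kb for both genes.

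*Hoxd4* and *Hoxd3* overlap in the annotation, so 9 of their regions counted for both genes and 6 for *Hoxd3* alone. Over the regions of *Hoxd4* the median was 6.66 per kb in WT and 6.89 in *MommeD43*. Over those of *Hoxd3* alone, which lie nearer to *Hoxd1*, it was 6.49 and 6.69. The 2 regions between *Hoxd3* and *Hoxd1* were lower again, with 6.43 and 6.18 in WT and 6.51 and 6.33 in *MommeD43*. In WT the level per kb was at most 6.88 from the gap after *Hoxd8* onwards and at least 6.90 from *Hoxd13* to *Hoxd8*. In *MommeD43* the first 3 regions beyond *Hoxd8* still had 7.09, 7.14 and 7.07 per kb, within the range of the *Hoxd13* side, and the level fell only further on.

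The microRNA gene of the cluster, *Mir10b*, lies in an intron of *Hoxd4* (chr2:74726070-74726137). Its mature 5-prime product is printed from RefSeq (GRCm38.p6, plus strand, chr2:74726074-74726096) with the seed, bases 2 to 8, in capitals, since the whole hairpin lay in a peak.
mmu-miR-10b-5p: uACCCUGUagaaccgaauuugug
The region at *Mir10b* had 10.20 in WT and 10.44 in *MommeD43*, or 6.48 and 6.72 per kb. That is lower than at every gene from *Hoxd13* to *Hoxd8*.

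**Figure D1:**
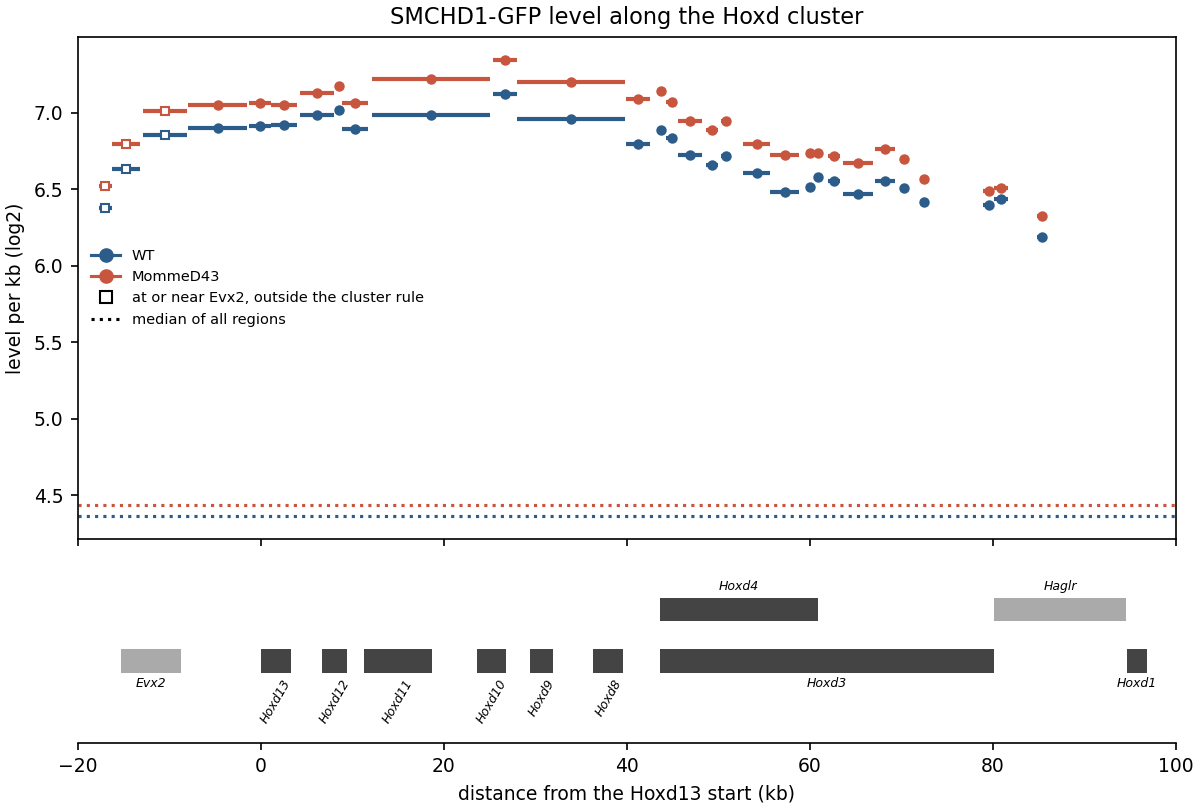
SMCHD1-GFP level per kb of region (log2) against distance from the *Hoxd13* start in kb, in WT (blue) and *MommeD43* (red), with peaks as bars, their centres as points, dotted medians of all regions and gene positions underneath. WT levels lie between 6.90 and 7.12 from *Hoxd13* to *Hoxd8*, fall towards *Hoxd1*, and no peak lies at *Hoxd1* itself.

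In order of WT level per kb the genes ran *Hoxd10* (7.05), *Hoxd12* (6.98), *Hoxd9* and *Hoxd8* (6.96), *Hoxd11* (6.94), *Hoxd13* (6.92), *Hoxd4* (6.66) and *Hoxd3* (6.55). Genes next to each other on the chromosome share regions or reads, so their levels are not independent. The counting SD of a single WT value was 0.02 to 0.03 in this cluster, from an estimated 584.8 to 2111 reads per library in a region. From *Hoxd12* to *Hoxd13* neighbours in the order were closer than 2 such SDs, a wide measure for a median over several regions. Per kb of region, the step from *Hoxd13* to *Hoxd4* was larger than the counting error. The spread between lines is unknown and was not part of this error. When levels were divided by the bases inside peaks, a scale chosen after the data were seen, the step was no longer seen. *Hoxd13* then had 6.98 in WT, beside 7.03 at *Hoxd4* and 7.05 at *Hoxd3*.

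For the comparison of the ends, the *Hoxd13* end was taken as *Hoxd13* to *Hoxd9* and the *Hoxd1* end as *Hoxd8* to *Hoxd1*. The region over both *Hoxd9* and *Hoxd8* and 4 regions between genes belonged to neither end. In WT the 7 regions of the *Hoxd13* end ran from 6.90 to 7.12 per kb with a median of 6.98. The 15 regions of the *Hoxd1* end ran from 6.39 to 6.88 with a median of 6.55. The *Hoxd13* end was 0.43 higher, or 1.35-fold, and no region of one end reached the values of the other. The nearest values, 6.896 and 6.885, were closer than their counting SDs of 0.025 and 0.027. Many regions within an end overlap and share reads, so they are not separate observations.

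In *MommeD43* the *Hoxd13* end ran from 7.05 to 7.35 per kb (median 7.13) and the *Hoxd1* end from 6.49 to 7.14 (median 6.74). The *Hoxd13* end was 0.39 higher, or 1.31-fold. Here the ends overlapped, as 2 of the 15 *Hoxd1*-end regions were above the lowest region of the *Hoxd13* end. Both lie where *Hoxd4* and *Hoxd3* begin.

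The ends also differed in the share of each region that lay in peaks. At the *Hoxd13* end 91.6% to 97.6% of the bases of a region were in peaks (median 95.3%), and at the *Hoxd1* end 27.2% to 86.4% (median 76.1%). Over the 27 regions Pearson's r between this share and the WT level per kb was 0.87, and between the distance from the *Hoxd13* start and that level it was -0.89, a description over regions that share bases and reads. When each level was divided by the bases inside peaks, which assigns all reads to them, the WT medians of the ends were 7.04 (6.96 to 7.16) and 7.05 (6.86 to 8.27) and the *MommeD43* medians 7.23 (7.12 to 7.38) and 7.28 (7.06 to 8.36). The regions of the *Hoxd1* end with the lowest shares in peaks, 27.2% and 34.9%, then had the highest WT levels, 8.27 and 7.94. On this scale, chosen after the data were seen, the *Hoxd13* end was no longer the higher one in either genotype. CG dinucleotides also differed, with a median of 32.1 per kb at the *Hoxd13* end and 20.6 at the *Hoxd1* end, while GC content was 51.1% and 49.4%. What part peak coverage, position or base composition had in the step was not tested.

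**Figure D2:**
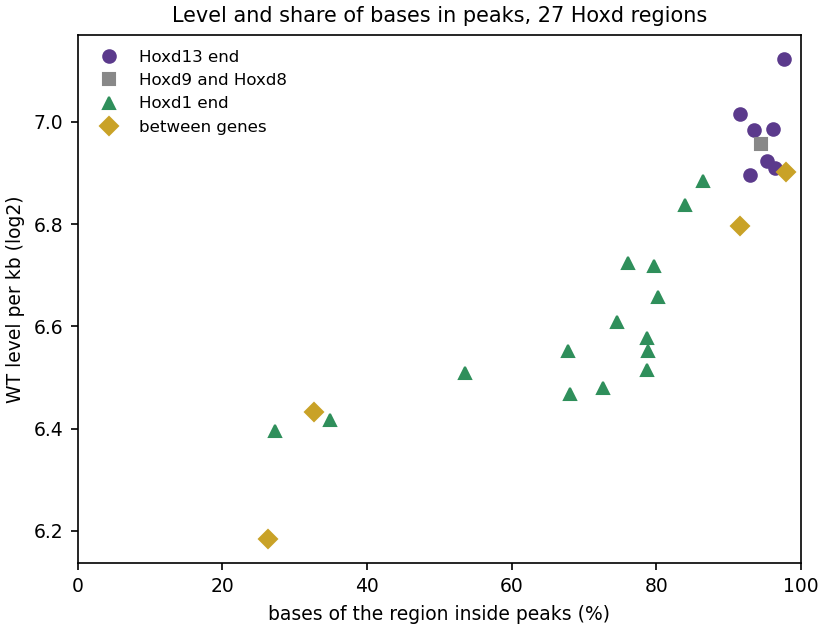
WT level per kb (log2) of the 27 *Hoxd* regions against the share of their bases inside peaks (%), by end of the cluster. The 7 *Hoxd13*-end regions lie at 91.6% or more and above all 15 *Hoxd1*-end regions, whose shares run from 27.2% to 86.4%.

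All 27 *Hoxd* regions were higher in *MommeD43* than in WT, beside 66.0% of all 2840 regions. The same held for all 32 regions of *Hoxa*, all 56 of *Hoxb* and all 53 of *Hoxc*, so it was shared by the 4 clusters. The median difference was 0.19 at *Hoxd*, beside 0.07 over all regions, 0.26 at *Hoxa*, 0.17 at *Hoxb* and 0.13 at *Hoxc*. At *Hoxd* the lowest and highest were 0.08 and 0.29. None was over 0.5, a difference that 1.23% of all regions had. For 26 of the 27 the difference was over 2 counting SDs, as it was for 26.8% of all regions. The counting SD was smaller at *Hoxd* (median 0.04) than over all regions (0.10), so the same difference passed more easily there.

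Outside the Hox clusters 67 regions had a mean of both genotypes as high as that of the lowest *Hoxd* region, and their median difference was 0.13, with 64 above 0. Of these, 9 regions reached the median *Hoxd* mean, with a median difference of 0.13 (-0.13 to 0.17) and 6 above 0. Those 9 included 2 regions at *Evx2*, in the same run of peaks as *Hoxd*, and 2 more within 200 kb of another Hox cluster. Without these 4, the median of the other 5 was -0.03, with 2 above 0. The larger set of 67 without regions within 200 kb of a Hox cluster held 57 regions. Their median difference was 0.14, with 54 above 0. Once the trend of the difference with the level had been fitted outside the Hox clusters and subtracted, the *Hoxd* median was 0.03 and 16 of 27 regions were above 0, beside 49.6% of all 2824 regions with a WT value above 4. At *Hoxa* the median was 0.10 (30 of 32 above 0), at *Hoxb* 0.02 (34 of 56) and at *Hoxc* -0.03 (17 of 53). With the regions within 200 kb of a Hox cluster left out of the fit, a choice made after the data were seen, the median was 0.01 and 15 were above 0, beside 49.1%. After a fit on GC content the *Hoxd* median was 0.06 and 24 of 27 were above 0, beside 51.2%. The *Hoxd* regions thus lay near the trend with level, which rests on few regions at so high a level, and mostly above the trend with GC content.

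**Figure D3:**
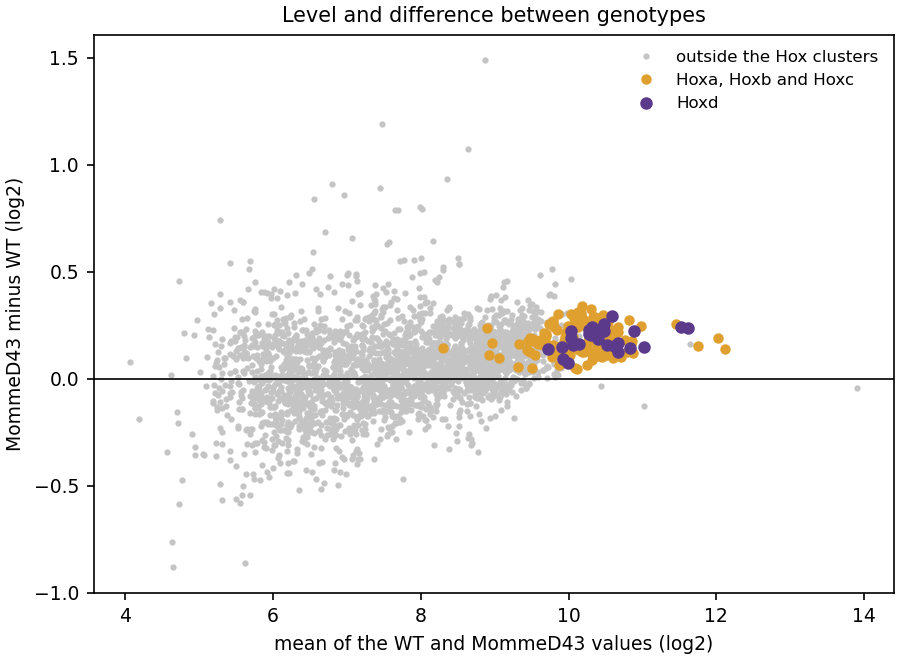
Difference between genotypes (*MommeD43* minus WT, log2) against the mean of both values (log2) for the 2824 regions with a mean above 4, with *Hoxd* in purple and the other Hox clusters in orange. The 27 *Hoxd* points lie between 0.08 and 0.29, at the upper end of the levels.

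By gene, at *Hoxd13* the median difference was 0.14 and at *Hoxd12* 0.16. It was 0.20 at *Hoxd11*, 0.23 at *Hoxd10* and 0.24 at *Hoxd9* and *Hoxd8*. Over the regions of *Hoxd4* it was 0.23 and over those of *Hoxd3* alone 0.18.

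The largest difference of the cluster was in a region whose peak, chr2:74708251-74710800, lay between *Hoxd8* and *Hoxd3*, inside the antisense gene *Hoxd3os1*. Its reads were counted over chr2:74703251-74715800, which also holds *Hoxd8* and the starts of *Hoxd3* and *Hoxd4*, so the difference cannot be placed in the gap. This region had 10.45 in WT and 10.74 in *MommeD43*, a difference of 0.29 with a counting SD of 0.04, or 1.23-fold. It was higher than 93.2% of all regions in this difference and lay 0.13 above the fit on level. The smallest difference, 0.08, was in a region whose peak, chr2:74748451-74749950, lay beyond *Hoxd3*, with 9.96 in WT and 10.03 in *MommeD43*. Both regions were picked here with their values already in view.

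By ends, the difference between genotypes had a median of 0.16 (0.13 to 0.24) over the 7 regions of the *Hoxd13* end and 0.21 (0.09 to 0.26) over the 15 of the *Hoxd1* end. The *Hoxd13* end minus the *Hoxd1* end was -0.05 on the log2 scale. The ranges of the ends overlapped, and whether this value exceeds the error was not tested.

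Regions that overlap share reads, so the course along the cluster was also followed over 7 regions that share no bases, from *Hoxd13* to *Hoxd1*. Their differences between genotypes were 0.15, 0.17, 0.22, 0.29, 0.19, 0.21 and 0.08. The SD of these 7 values was 0.07, which is 1.81 times their counting SD of 0.04. The same ratio was 1.58 over 7 such regions of *Hoxa*, 1.43 over 11 of *Hoxc* and 0.844 over 13 of *Hoxb*. Counting error is a lower bound, so these ratios do not show that the difference varied along *Hoxd*, and how much lines of a genotype differ at these regions is not known.

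**Figure D4:**
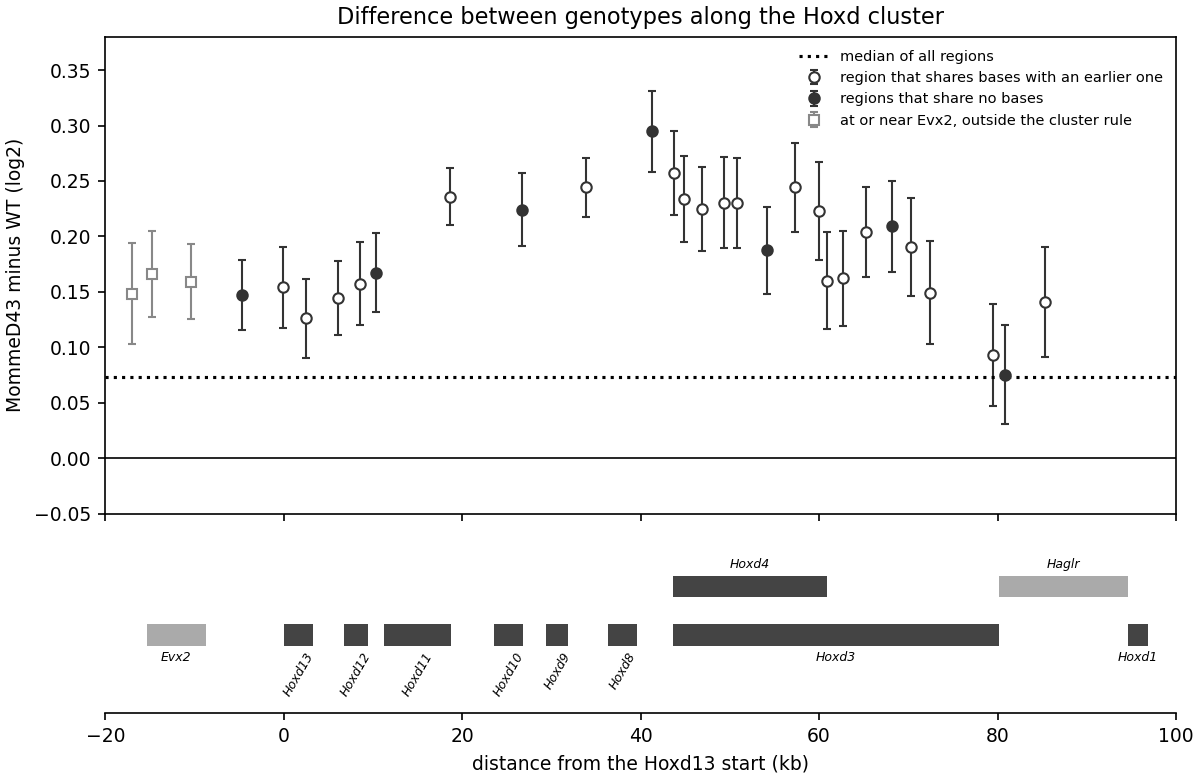
Difference between genotypes (*MommeD43* minus WT, log2) against distance from the *Hoxd13* start in kb, with bars of 1 counting SD, filled points for regions that share no bases and a dotted line at the median of all regions, 0.07. The highest value, 0.29, belongs to a region whose peak lies between *Hoxd8* and *Hoxd3*. The lowest, 0.08, belongs to a region whose peak lies beyond *Hoxd3*, and the last region has 0.14.

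Per kb of region, *Hoxd13* had the highest level of group 13, with 6.92 in WT and 7.06 in *MommeD43*, beside 6.81 and 6.99 at *Hoxa13*, 6.28 and 6.39 at *Hoxc13* and 6.08 and 6.19 at *Hoxb13*. All of *Hoxd13* lay in peaks, as did 81.8% of *Hoxa13*, 19.2% of *Hoxb13* and 11.7% of *Hoxc13*. Per kb inside peaks, a scale chosen after the data were seen, *Hoxd13* was the lowest, with 6.98 in WT. *Hoxa13* then had 7.17, *Hoxb13* 7.88 and *Hoxc13* 8.96. This scale assigns all reads of a region to its bases in peaks, so a low share in peaks raises the value. Per kb of region again, in group 10 *Hoxd10* had 7.05 and 7.28, *Hoxa10* 7.25 and 7.47 and *Hoxc10* 6.97 and 7.13. In group 4, *Hoxd4* had 6.66 and 6.89, below *Hoxa4* with 6.87 and 7.11 and above *Hoxb4* with 6.29 and 6.45 and *Hoxc4* with 6.21 and 6.47. Per kb inside peaks, *Hoxd10* and *Hoxd4* were the lowest of their groups in WT. *Hoxd10* then had 7.10, beside 7.34 at *Hoxa10* and 7.49 at *Hoxc10*. *Hoxd4* had 7.03, beside 7.24 at *Hoxa4*, 7.49 at *Hoxc4* and 7.73 at *Hoxb4*. In group 1, *Hoxd1* and *Hoxb1* had no region.

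By the same rule for the ends, regions over genes of groups 9 to 13 alone were 0.43 above those over genes of groups 1 to 8 alone in WT at *Hoxd* and 0.30 above at *Hoxa*. At *Hoxb* the difference was -0.02 and at *Hoxc* -0.46, with 4 regions at the group 13 end of *Hoxa*, 3 at that of *Hoxb*, 4 at that of *Hoxc* and 7 at that of *Hoxd*. In *MommeD43* the values were 0.39 at *Hoxd*, 0.27 at *Hoxa*, -0.20 at *Hoxb* and -0.46 at *Hoxc*. The rule left out regions over genes of both ends, of which there were 10 at *Hoxc* and 1 each at *Hoxa* and *Hoxd*. It also left out regions given to genes of neither end, 8 at *Hoxa*, 27 at *Hoxb*, 18 at *Hoxc* and 4 at *Hoxd*. By gene, *Hoxc10* (6.97) and *Hoxc9* (6.88) in WT lay close to the 6.89 of the other end of *Hoxc*. At *Hoxa* the highest genes were *Hoxa7* (7.43) and *Hoxa6* (7.38), above *Hoxa13* and *Hoxa11* (7.13), and *Hoxa3* had 14 of the 19 regions of the other end. The values of *Hoxa*, *Hoxb* and *Hoxc* therefore describe few regions and not a course along those clusters.

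**Figure D5:**
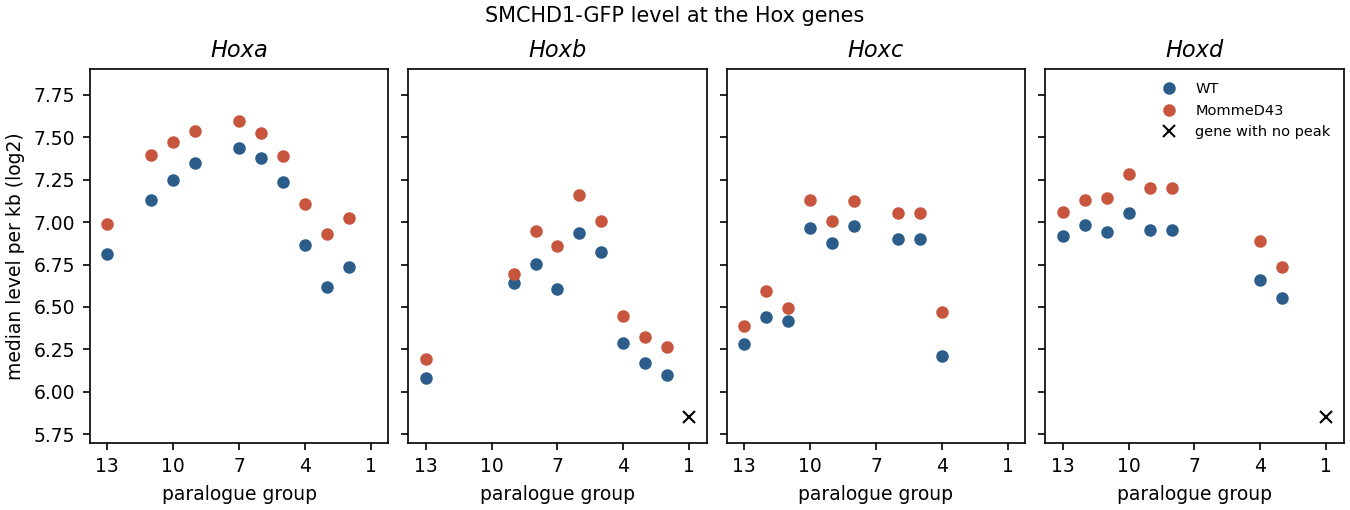
Median level per kb (log2) of the regions of 38 Hox genes in WT (blue) and *MommeD43* (red) by paralogue group from 13 to 1, with a cross for genes without a peak. *Hoxd13* lies above the other group 13 genes on this scale, and *Hoxd1* and *Hoxb1* have no value.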

How the data were processed

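GFP ChIP-seq of 3 WT and 3 *MommeD43* NSC lines was analysed. The WCE libraries were not analysed here. The authors aligned reads to GRCm38.p6 with Bowtie2 2.3.4.1 (trimming by Trim Galore 0.4.4 with Cutadapt 1.15, handling of alignments by Samtools 1.7) and used SeqMonk 1.45.1 for counting. They deposited log2 values of counts normalized by total library size, with the 3 lines of a genotype merged into 1 value. Total depths are unknown, and scaling to library size does not remove differences in how many reads are background.

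The lowest value of each column was taken as 0 reads entered as 0.9, which gave the mean log2 library factor (0.46 in WT, 0.68 in *MommeD43*) and the reads per library in each region. The counting SD from these reads is a lower bound on the error. Fits on level and GC content were locally weighted, with a span of 0.3, over 2656 regions outside the Hox clusters with a WT value above 4.

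Each *Hoxd* gene was described by every region whose peak overlapped it, and other regions were given to the gap between genes. The values of 1 Hox gene outside the *Hoxd* cluster are not reported here. Members and lists were chosen with earlier results of these data known. Alternatives were the division by length, other members, other bounds of the ends, regions that share no bases, and the fits. Functions were tested on simulated data. The tools were pandas 2.3.3, statsmodels 0.14.6, SciPy 1.17.1 and NumPy 2.4.6 in Python 3.11.15, and Matplotlib 3.10.9.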

Additional observations from a re-analysis of the deposited data

How the results depend on the processing

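No paired analysis was possible because the 3 lines of each genotype were merged into 1 value, so fits without a line or with the replicate number as a block were not run. The comparison of *Hoxd13* alone with *Hoxd1* alone could not give a value, since *Hoxd1* has no region. A value was held to have moved when it changed by more than the 95% counting interval of a single region, or for the ends of a difference between 2 single regions, which is wider than that of medians over several.

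Of 35 alternatives, 21 did not move the value by this measure, 10 moved it in the same direction and 4 took it to the other side of 0. The *Hoxd* level above the regions outside the Hox clusters, 2.66 in WT and 2.80 in *MommeD43*, was 2.45 and 2.64 after division by length, 2.79 and 3.05 over *Hoxd* regions that share no bases, and 1.20 and 1.28 against regions with long peaks. It was 2.60 in WT over regions whose peak overlapped the cluster. The *Hoxd13* end minus the *Hoxd1* end vanished when levels were divided by the bases inside peaks, with -0.0038 in WT and -0.051 in *MommeD43*, both nearer to 0 than the measure (0.07 and 0.08). On the same scale the *Hoxd13* level above the highest other group 13 gene went from 0.11 to -1.99 in WT and from 0.07 to -1.95 in *MommeD43*. That division was added after the data were seen, as was counting the *Hoxd9* and *Hoxd8* region at both ends. The *Hoxd* difference between genotypes, 0.19, was 0.117 relative to the median of all regions, 0.028 after the fit on level, 0.063 after the fit on GC content and 0.013 with regions within 200 kb of a Hox cluster left out of the fit on level, a choice also made after the data were seen. What caused each shift was not tested. The difference between genotypes at the *Hoxd13* end minus that at the *Hoxd1* end was -0.05 under each of its 3 alternatives.

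The values hold no error between lines, and counting error is a lower bound. Few regions outside the Hox clusters are as strong as *Hoxd*, with 9 above the median *Hoxd* mean, of which 4 lie within 200 kb of a Hox cluster, 2 of them at *Evx2* beside *Hoxd13*. The fit on level rests on few regions there. A level in a region of 10600 to 22900 bp, as at *Hoxd*, does not place SMCHD1 on a gene within it, and regions that overlap share reads.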
